A study of Mus musculus with 10 samples.

Results

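Neutrophils, the short-lived granulocytes of the innate immune system, were the 79 cells that the authors' annotation of CD45+ brain cells names Neutro. They were taken from 45472 cells of 10 single-cell RNA libraries, and no cell of the authors' microglia annotation was among them. The series asked how loss of Nlrp3, the sensor of an inflammasome, affects brain immune cells in the APP/PS1 model of amyloid pathology. WT and Nlrp3KO mice were profiled at 3, 6 and 9 months of age, and APP/PS1 and Nlrp3KO APP/PS1 mice at 3 and 9 months, with 1 library for each genotype and age. All mice were littermates, the Nlrp3KO lacks the gene in the whole body, and the APP/PS1 transgenes drive mutant human amyloid precursor protein and presenilin 1 in neurons. Each library pooled the whole brains of 3 mice, 2 males and 1 female, dissociated with actinomycin D, an inhibitor of transcription, and sorted for CD45. Whether blood was flushed from these brains, and whether bone marrow was kept out of them, is not given in the sources used here. Cells of the tissue, of its vessels and of marrow therefore cannot be told apart.

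Neutrophils are made in the bone marrow in an ordered series of steps. Dividing progenitors first make the proteins of azurophilic granules, such as the protease elastase. Later stages make those of specific granules, such as lactoferrin and cathelicidin, under the transcription factor C/EBP epsilon, and then those of gelatinase granules. Mature cells carry the chemokine receptor CXCR2 and circulate in the blood, and few are found in a healthy brain.

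The markers of neutrophils were found in these cells, which describes the label and does not check it, since clusters are made from the same genes. S100a8 and S100a9, whose products form calprotectin, were found in all 79 cells and made up 32.1% of the neutrophils' 1010676 UMIs (unique molecular identifiers, which count RNA molecules). Ly6g, which encodes the antigen used to stain mouse neutrophils, was found in 69 cells and Retnlg, a resistin-like protein of granulocytes, in 62. Levels below are UMIs of a gene per 1000000 UMIs (CPM), summed over cells, and their intervals are exact 95% intervals that cover counting error only.

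The same cells were checked for RNA of other types. Of the 4 T cell markers, 121 UMIs were found, and 3 neutrophils held 10 or more of them. Of the 6 microglia markers, 1450 UMIs were found. The authors' doublet score was over 0.5 in 12 neutrophils (15.2%, against 7.63% of microglia), which held a median of 98.5 microglia marker UMIs (14 to 229), against a median of 2 (0 to 52) in the other 67. The 4 markers of B cells, NK cells and platelets gave 4, 2 and 12 UMIs, the 5 erythroid markers 123, and the 4 of basophils and mast cells 0. Eosinophil markers gave 63 UMIs, 58 of them from Ear2, with Prg2 and Epx at 0. All 79 cells were kept, and the values without the 12 cells are given where they matter. Those values still include the 3 cells with 10 or more T cell marker UMIs, whose doublet scores were up to 0.5.

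Neutrophils were rich in RNA. A neutrophil held a median of 12631 UMIs (2270 to 27750) and 2185 genes, whereas a microglial cell held a median of 4506 UMIs. In all 8 libraries with neutrophils, their median was above that of the monocytes and of the microglia of the same library. The libraries held 12440818 to 40682967 UMIs in all. The lowest cell of any type held 1754 UMIs, so cells with less RNA are not in these data. Of 45225 cell barcodes, 246 occurred in more than 1 library, and 2 of these belonged to neutrophils.

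Neutrophils were few and unevenly spread, and 60 of 79 came from 2 libraries. The WT library at 6 months held 29 of 4217 CD45+ cells, which is 0.688% (0.461% to 0.986%). The Nlrp3KO APP/PS1 library at 3 months held 31 of 9112, which is 0.340% (0.231% to 0.483%). These 2 libraries differ in genotype, age and batch number, and each batch number covers 1 age, so these factors cannot be told apart.

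The other 8 libraries lay below both. At 3 months, WT held 1 neutrophil of 7562 cells (0.0132%), Nlrp3KO 5 of 6241 (0.0801%) and APP/PS1 3 of 3363 (0.0892%). At 6 months, Nlrp3KO held 5 of 4216 (0.119%). At 9 months, WT held 3 of 2589 (0.116%) and APP/PS1 2 of 3035 (0.0659%). The Nlrp3KO library at 9 months held 0 of 2914 cells, which allows a share of up to 0.103%, and the Nlrp3KO APP/PS1 library 0 of 2223, which allows up to 0.135%. These limits are 3 cells of the total, and the exact two-sided 95% intervals that the plot shows reach 0.127% and 0.166%. The intervals of these 8 libraries overlap one another. That of the WT library at 6 months lies above all 8, and that of the Nlrp3KO APP/PS1 library at 3 months overlaps with 4 of them, as the plot of neutrophil share by library shows.

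**Figure D1:**
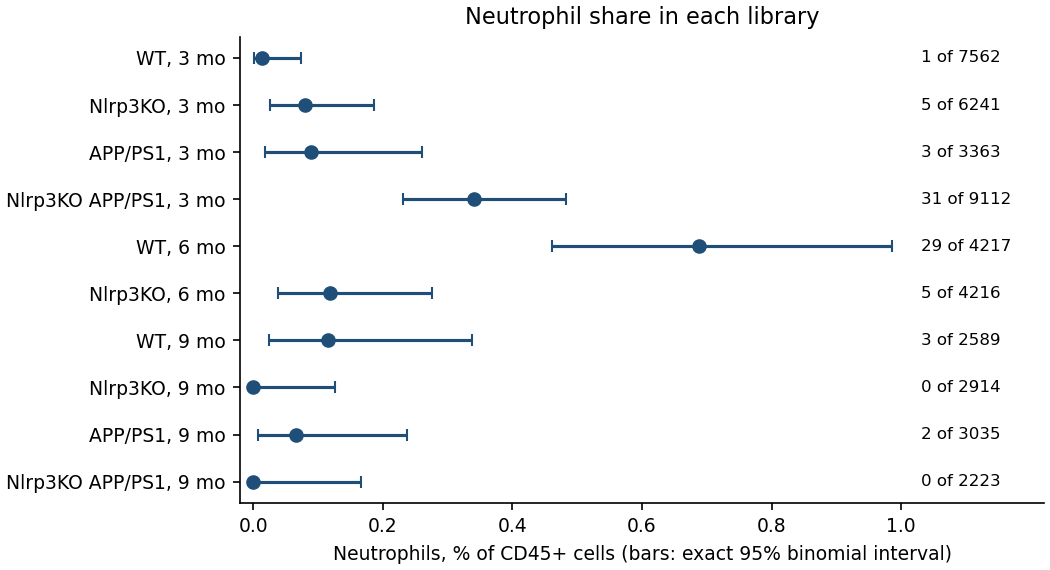
Neutrophils as a percent of CD45+ cells in each of 10 libraries, with exact 95% binomial intervals and the counts at the right. The WT library at 6 months (0.688%) and the Nlrp3KO APP/PS1 library at 3 months (0.340%) lie above the other 8.

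Neither genotype contrast moved the share beyond the spread of its pairs. Over 4 pairs of the same age and Nlrp3 genotype, APP/PS1 minus non-diseased was 0.0715 ± 0.136 percentage points (SD, n = 4 pairs), higher in 2 pairs, lower in 1 and equal in 1 (exact two-sided sign-flip permutation p = 0.5, where 0.25 is the smallest p that 4 pairs with 1 difference of 0 allow). Over 5 pairs of the same age and amyloid genotype, Nlrp3KO minus Nlrp3WT was -0.0866 ± 0.305 percentage points (SD, n = 5 pairs), higher in 2 pairs and lower in 3 (exact permutation p = 0.688, smallest possible 0.0625). Adjusted over these 2 tests, both p were 0.688 (exact permutation test). The first value was 0.00867 without the Nlrp3KO pair at 3 months, and the second was 0.0340 without the pair at 6 months. No pair had 10 or more neutrophils in both libraries, so gene levels in neutrophils were not tested between genotypes.

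Nlrp3 itself was scarce in neutrophils. The 38 neutrophils of Nlrp3WT libraries held 4 Nlrp3 UMIs, 1 in each of 4 cells, or 6.89 CPM (1.88 to 17.7), all in the WT library at 6 months. The 41 neutrophils of Nlrp3KO libraries held 0, which allows up to 6.97 CPM, so the knockout could not be checked in neutrophils at this depth. In the monocytes the labels held up, with 43 UMIs in 148 Nlrp3WT cells (29.8 CPM, 21.6 to 40.1) and 0 in 139 Nlrp3KO cells (up to 2.70 CPM).

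A large share of the RNA of these neutrophils came from few genes. The 10 genes with the most UMIs made up 48.5% of the total. S100a9 led with 171130 CPM (170324 to 171938), followed by S100a8 with 150177 CPM (149422 to 150934). Camp, which encodes the antimicrobial peptide cathelicidin, stood at 44012 CPM, and Ngp, a cathelicidin-related granule protein, at 37669 CPM. Lcn2, which encodes the iron-scavenging lipocalin 2, reached 17011 CPM, and Ltf, which encodes lactoferrin, 9946 CPM. The other 4 were genes that monocytes also express, namely Tmsb4x (22139 CPM), Lyz2 (16679 CPM), Actb (8797 CPM) and Malat1 (7026 CPM).

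The genes named here lie in the mouse genome GRCm38 (GENCODE M21) as follows. S100a8 is at chr3:90668978-90670035 (plus strand) and S100a9 at chr3:90692632-90695721 (minus strand), 22.6 kb apart. Camp (chr9:109847379-109849617, minus strand), Ngp (chr9:110419747-110423012, plus strand) and Ltf (chr9:111019271-111042767, plus strand) lie within 1.20 Mb of chromosome 9. Lcn2 is at chr2:32384633-32388252 (minus strand), Retnlg at chr16:48872621-48874496 (plus strand) and Mmp8 at chr9:7558456-7568485 (plus strand).

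C/EBP epsilon belongs to a family of factors that bind sequences such as TTGCNNAA, whose reverse complement is TTNNGCAA, and the promoters of the leading granule genes were searched for these letters. In promoter windows from RefSeq (GRCm38.p6, 250 bases before to 50 after the start), 6 of 10 neutrophil genes searched held a match on either strand, namely Ltf, Ngp, Lcn2, S100a9, Retnlg and Mmp8, while Camp, S100a8, Cd177 and Cxcr2 held none. Hp and Mmp9 had no entry. The only match of Lcn2 lay in an annotated exon, and its window fell within the gene coordinates given above. Of all 32851 windows, 10.8% held a match. The stretches around the 5 matches outside annotated exons are shown on the gene's own strand, 5′ to 3′, with the match in capitals, because these are granule and marker genes that the results turn on.
Ltf, chr9:111019201-111019240: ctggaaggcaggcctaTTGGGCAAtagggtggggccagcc
Ngp, chr9:110419654-110419693: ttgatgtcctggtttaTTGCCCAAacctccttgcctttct
Retnlg, chr16:48872358-48872385: agctTTCTGCAAggcattccaggcacct
S100a9, chr3:90695934-90695971: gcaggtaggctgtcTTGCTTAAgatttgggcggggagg
Mmp8, chr9:7558394-7558433: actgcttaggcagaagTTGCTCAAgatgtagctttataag
The match in Ltf began 75 bases before the start, that in Ngp 138, that in Retnlg 246, that in S100a9 236 and that in Mmp8 19. These distances are to the RefSeq starts, which can differ from the GENCODE coordinates given above. A match is a description of letters and not a bound site. Among genes with a window, the letters were in 18.8% of 80 genes more than 4-fold higher in neutrophils than in monocytes, in 11.7% of 470 genes more than 4-fold lower, and in 11.3% of all 3548 compared.

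Neutrophils were then set beside the 287 monocytes, which the annotation divides into 149 Mono and 138 Mono NC. Clusters are made from these same genes, so the comparison is a description and has no test. Among 4435 genes with at least 100 UMIs over both types, 97 (2.19%) were more than 4-fold higher in neutrophils and 609 (13.7%) more than 4-fold lower. The median gene was lower in neutrophils, by a log2 ratio of -0.86. Relative to that median, 187 genes (4.22%) were more than 4-fold higher and 269 (6.07%) more than 4-fold lower. Lower genes outnumbered higher ones on both scales, and the size of that excess depends on the scale.

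Genes of granules, calprotectin and other neutrophil markers were among the 10 highest ratios. Ngp had 1 UMI in all monocytes, and its level in neutrophils was 96140-fold higher (17254 to 3797430). Camp, with 5 UMIs in monocytes, was 22466-fold higher (9626 to 69194). S100a9 was 13649-fold higher (9668 to 19955) than in monocytes. Their level was near that of microglia of the same libraries (1.08 times it in Mono, 0.671 to 1.66, and 1.42 times in Mono NC, 0.710 to 2.54), so the fold is not read as exact. S100a8 was 5251-fold higher (4176 to 6699) and Ltf 8461-fold higher (2894 to 41037), the latter from 3 monocyte UMIs. The monocyte levels of Ngp (0.392 CPM), Camp (1.96) and Ltf (1.18) were also near those of microglia summed over all libraries (0.875, 1.29 and 0.324), so their folds are not read as exact. Retnlg, Mmp9 and Ly6g had 0 UMIs in monocytes, so they were at least 3062-fold, 1031-fold and 721-fold higher against a floor of 3 UMIs over the group. Lcn2 was 1173-fold (851 to 1667) and Wfdc21, a small secreted protein of the whey acidic protein family, 967-fold (585 to 1728) higher. The same direction in both libraries with 10 or more cells of each type was a condition for naming these 10 genes and is no result.

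At the other end stood genes of monocytes. Fn1, which encodes fibronectin, had 0 UMIs in neutrophils and was at least 332-fold lower, and F13a1, the A chain of coagulation factor XIII, was 329-fold lower from 2 UMIs (1.98 CPM, 0.240 to 7.15). Ms4a4c was 470-fold lower from 1 UMI (0.989 CPM, 0.0251 to 5.51), S100a4 196-fold, Crip1 103-fold and Ms4a6c 99.7-fold lower. Klf4, a transcription factor of monocyte differentiation, was at least 118-fold lower, with 0 UMIs. Rnase6 was at least 80.8-fold, Capn2 at least 33.7-fold and Fabp4 at least 33.4-fold lower, each with 0 UMIs. Of these 10 genes, Fabp4 (281 CPM against 5.35), Klf4 (568 against 238) and Rnase6 (351 against 182) were higher in Mono NC than in Mono. The folds of Fn1 and F13a1 came from Mono, at 1490 and 985 CPM, whereas Mono NC held 5.75 and 4.60.

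**Figure D2:**
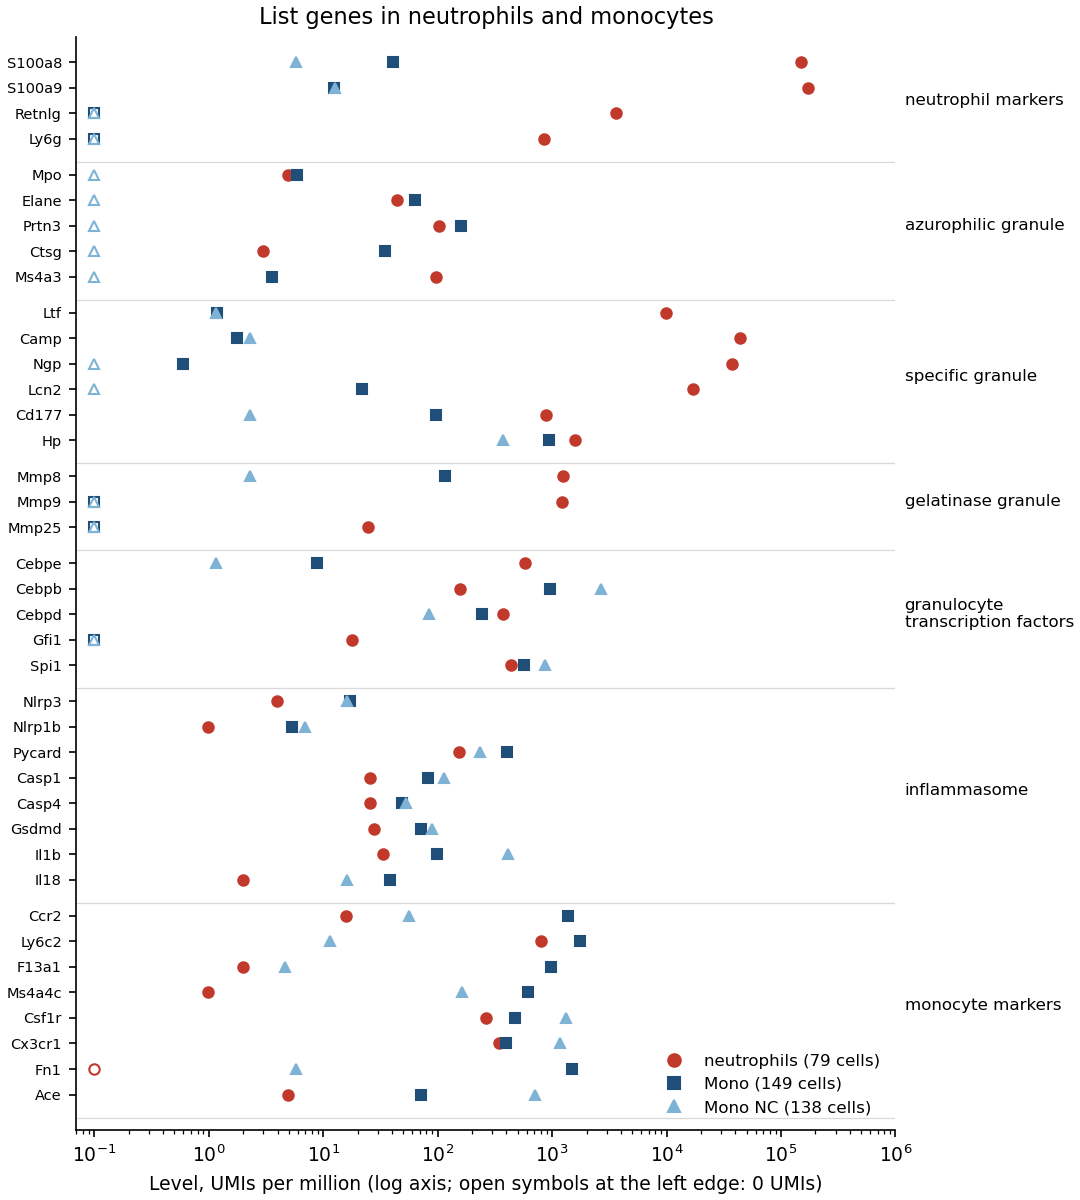
Level of the genes of 7 lists in neutrophils (79 cells), Mono (149) and Mono NC (138), in CPM on a log axis, with open symbols at the left edge for 0 UMIs. Specific granule genes lie far to the right in neutrophils except Hp (1576 against 935 and 373), whereas Elane and Prtn3 of the azurophilic list lie close to Mono.

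The granule lists differed in their ratios to monocytes. Of the 6 specific granule genes, 5 were more than 4-fold higher in neutrophils, against 2.19% of all genes compared, with a median log2 ratio of 11.08, against -0.86 for all genes. The exception was Hp, which encodes haptoglobin, at 1576 CPM against 935 in Mono and 373 in Mono NC. Cd177, a surface antigen of neutrophils, stood at 889 CPM against 96.9 and 2.30.

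The gelatinase granule genes Mmp8 and Mmp9, both matrix metalloproteinases, were at 1241 and 1212 CPM, and were more than 4-fold higher. Mmp8 was also present in Mono, at 117 CPM. Mmp25, the third gene of that list, had 25 UMIs in 20 neutrophils and too few in all to enter the comparison.

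Azurophilic granule genes were low and sat in few cells. Prtn3, which encodes proteinase 3, had 105 UMIs in 14 neutrophils (104 CPM), and Elane, which encodes neutrophil elastase, 45 UMIs in 5 (44.5 CPM). In Mono they stood at 159 and 63.6 CPM. The log2 ratios to monocytes went opposite ways in the 2 libraries with enough cells, at 0.92 (Prtn3) and 0.27 (Elane) in Nlrp3KO APP/PS1 at 3 months and at -4.59 and -2.67 in WT at 6 months. Mpo, which encodes myeloperoxidase, had 5 UMIs and Ctsg, which encodes cathepsin G, 3. In the 50 cells that the annotation names Precursors, Prtn3 stood at 2120 CPM, Elane at 1498, Mpo at 1225 and Ctsg at 1022. The low azurophilic values thus hold for cells labelled Neutro and depend on where the annotation places that label. Of the 3 genes of this list with enough UMIs, only Ms4a3, a marker of granulocyte and monocyte progenitors, was more than 4-fold higher (2.19% of all genes were), at 97.0 CPM in neutrophils and 3.57 CPM in Mono.

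Among the granulocyte transcription factors, Cebpe, the gene of C/EBP epsilon, was 92.8-fold higher in neutrophils (56.7 to 163), at 582 CPM. Cebpb, a C/EBP gene of monocytes and of emergency granulopoiesis, was lower, at 158 CPM against 960 in Mono and 2673 in Mono NC. Gfi1, a repressor needed for neutrophil formation, had 18 UMIs in 15 neutrophils and 0 in monocytes. Spi1, the gene of the myeloid factor PU.1, stood at 438 CPM against 565 and 859, and Cebpd at 372 against 246 and 84.0.

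Surface receptors were less separated. Of 17 genes, 14 entered the comparison, 3 were more than 4-fold higher and 1 was more than 4-fold lower, where all genes compared gave 2.19% higher and 13.7% lower, so the 1 lower gene is no result about receptors. Relative to the median of all genes, these numbers were 6 and 0, against 4.22% and 6.07% of all genes compared. Cxcr2 had 184 UMIs in 53 neutrophils and 0 in monocytes, at least 155-fold higher. Fpr2, a receptor for formylated peptides, was 4.11-fold (3.27 to 5.19) and C5ar1, the receptor of complement fragment C5a, 4.75-fold (3.57 to 6.36) higher. Both passed 4-fold in the WT library at 6 months (log2 ratios 2.92 and 3.23) but not in the Nlrp3KO APP/PS1 library at 3 months (1.45 and 1.35). Fcgr4, an Fc receptor of non-classical monocytes, was lower than in Mono NC, at 42.5 CPM against 452, but not lower than in Mono, at 30.3. Csf3r, the receptor for the growth factor G-CSF, stood at 148 CPM against 92.7 in Mono and 128 in Mono NC.

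Most cytokine genes had few UMIs. Of 12 cytokine and activation genes, 4 entered the comparison. None was more than 4-fold higher and 2 were more than 4-fold lower (Il1b and Icam1), where all genes compared gave 2.19% higher and 13.7% lower. Relative to the median of all genes, 1 of the 2 remained so, against 6.07% of all genes. Il1b, which encodes interleukin 1 beta, had 34 UMIs in 7 neutrophils, or 33.6 CPM, against 98.6 in Mono and 414 in Mono NC. Tnf had 9 UMIs, Cxcl2 14 UMIs in 3 cells and Ptgs2 1 UMI. Most of the 387 UMIs of this list came from Cxcr4, a chemokine receptor of marrow retention (133 UMIs in 61 cells, 132 CPM), and Nfkbia, an inhibitor of NF-kB (125 UMIs in 53 cells, 124 CPM).

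Of the 8 inflammasome genes, 5 entered the comparison. Il1b alone was more than 4-fold lower, close to the 13.7% of all genes, and, relative to the median of all genes, none was. Pycard, the adaptor ASC, stood at 153 CPM against 404 in Mono and 236 in Mono NC, and Casp1, the caspase that cleaves interleukin 1 beta, at 25.7 against 83.2 and 113.

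Of the 10 interferon-stimulated genes, 6 entered and 5 were more than 4-fold lower, on either scale, against 13.7% of all genes (6.07% relative to the median). All 5 differed less from Mono NC than from Mono, and 3 of them by less than 4-fold. Isg15 stood at 7.92 CPM in neutrophils against 99.2 in Mono and 19.6 in Mono NC, and Ifit3 and Cxcl10 were also less than 4-fold below Mono NC, at 2.97 against 9.20 CPM (58.8 in Mono) and 0.989 against 3.45 CPM (91.5 in Mono). Isg15, a ubiquitin-like protein, had 8 UMIs, and Irf7, a factor that amplifies interferon production, 7. Slfn4 went the other way, with 122 UMIs in 50 neutrophils (121 CPM) against 5.94 CPM in Mono.

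The survival list held the Bcl2a1 genes, near-identical copies whose reads can be shared or lost in counting, so their values are uncertain. Bcl2a1a, Bcl2a1b and Bcl2a1d were more than 4-fold lower on either scale, against 13.7% of all genes (6.07% relative to the median), with 3, 12 and 2 UMIs in neutrophils. Bcl2a1a (2.97 CPM against 11.3 in Mono and 237 in Mono NC) and Bcl2a1b (11.9 against 33.3 and 586) were less than 4-fold below Mono. Mcl1, the survival factor of the same family, was at 266 CPM against 616 in Mono and 785 in Mono NC.

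The genes of the NADPH oxidase, the enzyme of the respiratory burst, were present in nearly every neutrophil. All 6 entered and 1, Ncf1, was more than 4-fold higher, at 676 CPM (4.60-fold, 4.05 to 5.23), while none was more than 4-fold lower, against 2.19% and 13.7% of all genes. Relative to the median of all genes, 2 were more than 4-fold higher, against 4.22% of all genes. Cybb, the catalytic subunit, stood at 1867 CPM in neutrophils, 1386 in Mono and 2392 in Mono NC.

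Stefins, protease inhibitors that are a family of near-identical copies, gave 84 UMIs over 7 genes, 51 of them Stfa2l1 in 6 cells. Stfa2, BC100530 and BC117090 were at 0. Of the 8 monocyte markers, 5 were more than 4-fold lower in neutrophils, against 13.7% of all genes, and Ccr2, the chemokine receptor of classical monocytes, had 16 UMIs in 4 cells. Ly6c2 was not among them, with 800 CPM in neutrophils and 1762 in Mono. Nor were Csf1r, at 264 CPM against 474 in Mono and 1329 in Mono NC, and Cx3cr1, at 342 against 398 and 1166. In microglia these 2 genes stood at 3332 and 4866 CPM, and the part of mixed cells in their neutrophil levels was not tested.

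The 79 neutrophils did not form 1 uniform state but spread along granule content, from 0.232% to 19.3% of a cell's UMIs on the 6 specific granule genes (median 11.7%). Retnlg spread from 0 UMIs in 17 cells to 546 UMIs per 10000. The following 3 ranges were set after the values had been seen, and they are ranges of a score and not cell types. Granule-low cells held under 3% of UMIs on specific granule genes (11 cells), cell-cycle cells held UMIs of 2 or more of 8 cell-cycle genes (17 cells), and granule-high cells were the other 51. No cell met both of the first limits.

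Since the limits were set after the values had been seen, the place where they fell lends no support to the ranges. The cells nearest to 3% held 2.28% just below and 4.62% and 5.44% just above. Of the cell-cycle genes, 54 cells held none, 8 held 1, 1 held exactly 2 and 12 held 5 or more. Without the 12 cells of high doublet score, the ranges held 9, 17 and 41 cells.

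The 17 cell-cycle cells held most of the azurophilic granule RNA. Mki67, the proliferation marker, is 1 of the 8 genes that set this range and was found in 15 of them. Of 105 Prtn3 UMIs, 101 lay here, as did all 45 Elane UMIs, but a few cells carried them. A single cell, from the Nlrp3KO APP/PS1 library at 3 months, held 69 Prtn3 and 17 Elane UMIs, and the median cell of the range held 0.565 Prtn3 UMIs per 10000 and 0 of Elane. Camp was highest here, at a median of 661 UMIs per 10000 against 375 in granule-high cells, whereas Ltf was lower, at 74.7 against 123. Cebpe was found in 17 of 17 cells, at a median of 8.27 per 10000 against 4.16 in granule-high cells. Mmp8 had 0 UMIs in all 17 cells, which allows up to 9.93 CPM, and Mmp9 8 UMIs. Retnlg had a median of 0.498 per 10000.

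The 51 granule-high cells held both granule programmes. Mmp8 was found in 40 of them and Mmp9 in 46. Retnlg had a median of 6.80 per 10000 and Cxcr2 was found in 36 cells. Ly6g was at 1057 CPM, against 357 CPM in cell-cycle cells.

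The 11 granule-low cells differed from both. Specific granule genes, which set this range, held a median of 0.826% of their UMIs. Cebpe had 0 UMIs, which at 48245 UMIs in all allows up to 62.2 CPM, against 504 CPM in granule-high cells. Retnlg was found in 10 of 11 cells, at a median of 266 per 10000. Cxcr2 was found in 11 of 11, at a median of 10.4 per 10000 against 1.16 in granule-high cells. Csf3r (1119 CPM against 118) and Fpr1 (311 against 72.7) followed the same order. So did the gelatinase granule genes Mmp8 (4519 CPM against 1569) and Mmp9 (3130 against 1614), which were thus not particular to granule-high cells. Il1b was found in 4 of these cells, with 27 of its 34 UMIs, but 14 of the 27 lay in 1 cell with a high doublet score, 48 microglia marker UMIs and 3.26% of UMIs on calprotectin genes. Without high doublet scores, 13 Il1b UMIs remained in 3 granule-low cells (370 CPM, against 560 CPM with them). Calprotectin genes still held a median of 27.1% of UMIs, against 37.0% in granule-high and 30.8% in cell-cycle cells.

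**Figure D3:**
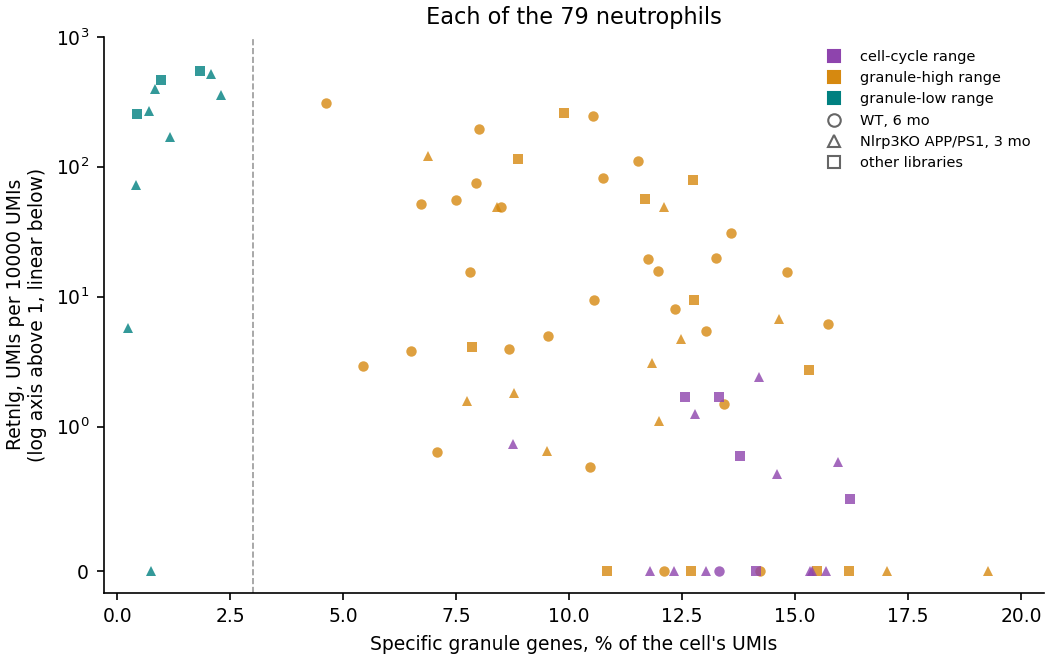
Each of the 79 neutrophils by the percent of its UMIs on 6 specific granule genes and by Retnlg UMIs per 10000, coloured by range and shaped by library, with the 3% limit dashed. The 11 granule-low cells lie at the upper left except 2 with 0 and 5.8 Retnlg UMIs per 10000, and cell-cycle cells lie at the lower right.

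Depth differed between the ranges. The median cell held 17671 UMIs in the cell-cycle range, 12280 in the granule-high range and 3858 in the granule-low range, with 2962, 2124 and 1204 genes. Cells were therefore thinned to 3750 UMIs each, which left out 3 shallower cells, and the cell-cycle limit was applied to the thinned counts, which gave 15, 53 and 8 cells. Retnlg was then found in 3 of 15, 33 of 53 and 8 of 8 cells, and Cxcr2 in 3 of 15, 23 of 53 and 8 of 8. Cebpe was found in 15 of 15, 41 of 53 and 0 of 8. The order of the ranges was the same at equal depth. The share of UMIs on ribosomal protein genes moved along, with medians of 4.80%, 2.82% and 2.46%, as did the mitochondrial share, with 1.68%, 0.890% and 0.495%, and their part in these values was not tested.

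**Figure D4:**
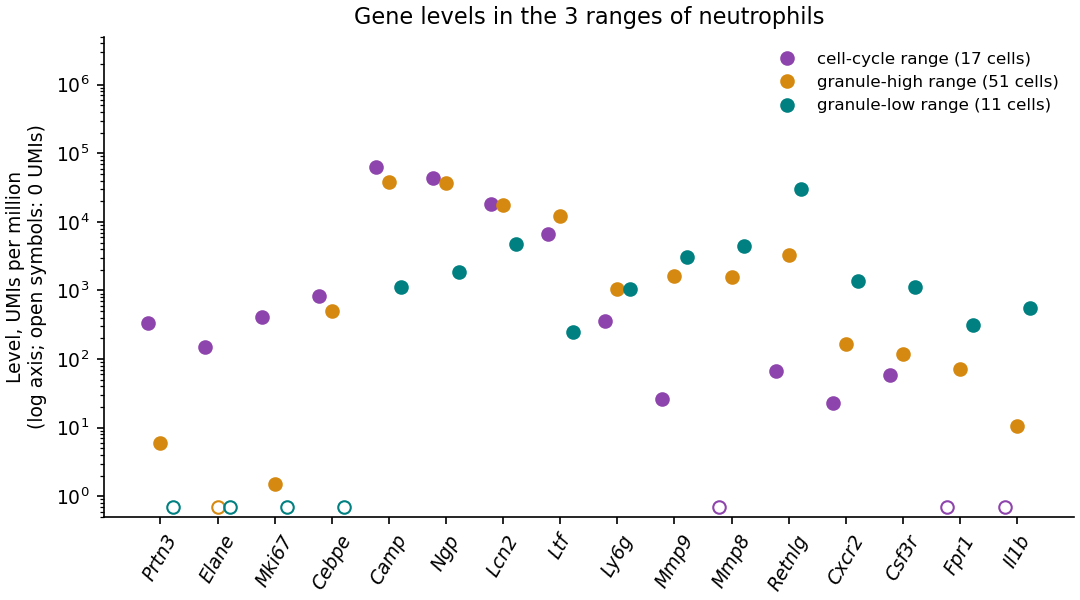
Level of 16 genes in cell-cycle, granule-high and granule-low neutrophils, in CPM on a log axis, with open symbols for 0 UMIs. Prtn3, Elane and Mki67 (a gene that sets the range) are highest in the 17 cell-cycle cells. Mmp9, Mmp8, Retnlg, Cxcr2, Csf3r, Fpr1 and Il1b are highest in the 11 granule-low cells.

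Over single cells, the specific granule share fell as Retnlg rose (Spearman rho = -0.61 over 79 cells), and Retnlg went with the gelatinase granule share (rho = 0.79 over 79 cells). These cells share libraries, and UMIs per cell went with Retnlg too (rho = -0.44), so the coefficients are descriptions. Within the Nlrp3KO APP/PS1 library at 3 months the first value was -0.66 over 31 cells, and within the WT library at 6 months it was -0.27 over 29. The second was 0.74 and 0.75. In the same 2 libraries, UMIs per cell went with Retnlg at -0.56 and -0.63.

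The 2 libraries with most neutrophils differed in the ranges they held. In the Nlrp3KO APP/PS1 library at 3 months, 11 of 31 neutrophils were in the cell-cycle range (35.5%, 19.2% to 54.6%), 12 in the granule-high range and 8 in the granule-low range (25.8%, 11.9% to 44.6%). In the WT library at 6 months, 1 of 29 was in the cell-cycle range (3.45%, 0.0873% to 17.8%), 28 in the granule-high range and 0 in the granule-low range, which allows up to 10.3%. The other 6 libraries together gave 5, 11 and 3 of 19 cells. Without cells of high doublet score the first library held 11, 9 and 6 and the second 1, 22 and 0. With 1 library each, genotype, age and batch cannot be told apart from the libraries, and no test was made.

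Gene levels differed with them. Elane had 44 UMIs in the first library, all in 4 cells, and 0 in the second. Prtn3 had 94 in the first, 69 of them in 1 cell, and 1 in the second. Mki67 had 71 and 0, and Top2a, a topoisomerase of dividing cells, 73 and 1. Mmp9 was lower in the first, at 765 CPM against 1597, and so were Ltf, at 7300 against 11534, and Ly6g, at 494 against 1018. Ngp was at 36090 and 36296 CPM and Lcn2 at 16798 and 16458. The specific granule share of single cells ran from 0.232% to 19.3% (median 11.8%) in the first library and from 4.62% to 15.7% (median 10.6%) in the second. Il1b had 27 UMIs in the first, or 13 without the 1 cell of high doublet score that held 14, with 7 in the second and 0 in the other libraries.

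The markers were also found in the libraries with few neutrophils. Over the 8 libraries with neutrophils, S100a8 lay between 105880 CPM (Nlrp3KO APP/PS1 at 3 months) and 192485 CPM (Nlrp3KO at 6 months). S100a9 lay between 147966 CPM (WT at 9 months) and 216213 CPM (WT at 3 months, 1 cell). Retnlg varied far more, from 166 CPM in the 3 cells of WT at 9 months to 11562 CPM in the single cell of WT at 3 months.

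S100a8 and S100a9 were also found at low level in the microglia and in the 11 other cell types of 100 or more cells, except NKT cells, where 0 of 204 had a UMI, which allows a share of up to 1.47%. Of all 423859 UMIs of both genes, 76.6% lay in neutrophils, 22.9% in the 50 cells labelled Precursors and 1695 UMIs in the 40547 microglia. In microglia, S100a8 was at 3.37 CPM and S100a9 at 5.35 CPM. Of the microglia, 3.88% (3.70% to 4.08%) had a UMI of either gene at a median of 4506 UMIs per cell. T cells had one in 4.13% (3.21% to 5.22%) of 1598 cells at a median of 5810 UMIs. Both shares pool libraries of very different levels, and values matched by library follow. Expression and free RNA cannot be told apart from these shares. Most microglia held 0 of these UMIs (38972), 1473 held 1, 95 held 2 and 7 held 3 or more, with a highest value of 11.

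The level in microglia went with the neutrophil share of the library. In the WT library at 6 months, which held the largest share of neutrophils, microglia carried 42.4 CPM of the 2 genes together (39.4 to 45.6), and 18.5% of them had a UMI. At an equal depth of 1500 UMIs per cell that share was 6.04%, against 2.27% in the Nlrp3KO APP/PS1 library at 3 months and 0.0743% in Nlrp3KO at 9 months. In the Nlrp3KO APP/PS1 library at 3 months they carried 15.2 CPM, and in Nlrp3KO at 6 months 9.68 CPM (8.30 to 11.2). The other libraries lay between 0.387 CPM (5 UMIs, Nlrp3KO at 9 months, with 0 neutrophils) and 4.94 CPM (WT at 9 months). The Nlrp3KO APP/PS1 library at 9 months, also with 0 neutrophils, had 1.82 CPM (1.06 to 2.91).

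Over the 10 libraries, Pearson's r between the neutrophil share and the microglial level was 0.98 (two-sided permutation p = 0.00016) and Spearman's rho 0.94 (permutation p = 0.00028). Without the 2 libraries farthest from the median share, r was 0.76 (exact permutation p = 0.00704, 8 libraries) and rho 0.87 (exact permutation p = 0.00794). This was the only relation across libraries computed. The batches of 1 age hold 4, 2 and 4 libraries, too few for a value within each. With both measures centred within batches and libraries permuted within batches only, a test added after seeing the data, r was 0.98 (exact permutation p = 0.00521 over 1152 arrangements) and rho, on ranks over all libraries, 0.87 (exact permutation p = 0.0139). At 3 months and at 6 months the order of the microglial level was that of the neutrophil share, and at 9 months it was not, since Nlrp3KO APP/PS1 (0 neutrophils) lay above APP/PS1 (2 neutrophils).

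**Figure D5:**
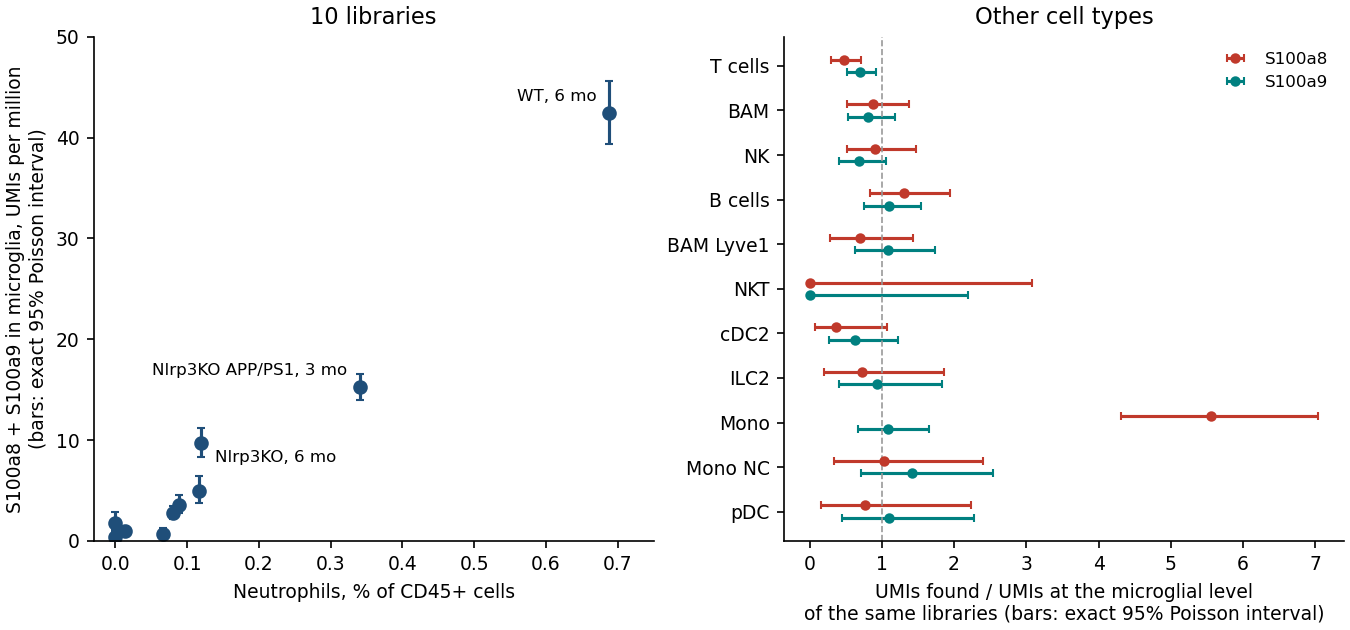
Left, S100a8 and S100a9 in microglia (CPM, exact 95% Poisson intervals) against the neutrophil share of each of 10 libraries, from 0.387 to 42.4 CPM. Right, UMIs of each gene found in other cell types over the number at the microglial level of the same libraries, with 1 dashed and only S100a8 in Mono far above it, at 5.55.

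Other cell types were set against the microglia of their own libraries, by applying the microglial level of each library to their UMIs there. For both genes together, BAM (0.835, 0.607 to 1.12), NK cells (0.768, 0.535 to 1.07), B cells (1.18, 0.889 to 1.53) and Mono NC (1.27, 0.726 to 2.06) had intervals that include 1. The 56 UMIs of B cells lay in 28 cells, of which 3 held over 5, with a highest value of 12. T cells (0.607, 0.473 to 0.767) and cDC2 (0.523, 0.261 to 0.936) lay below 1. The number at the microglial level, by which these ratios divide, scales with the UMIs of the cells. UMIs per cell were more in T cells (median 5810) and cDC2 (11289) than in microglia (4506). By cells with a UMI, T cells stood at 17.8% in the WT library at 6 months, against 18.5% of microglia. In the Nlrp3KO APP/PS1 library at 3 months they stood at 9.18%, against 6.27%. For cDC2 these shares were 35.3% of 17 cells and 4.76% of 42. The part of depth was not tested. For NKT cells the microglial level gave 2.88 UMIs, and 0 were found.

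Mono stood apart for S100a8 alone. They held 68 S100a8 UMIs against 12.2 at the microglial level (5.55-fold, 4.31 to 7.04), and 21 S100a9 UMIs against 19.4 (1.08-fold, 0.671 to 1.66). Of the 68, 31 lay in 3 cells. Mono held more UMIs per cell than microglia, with a median of 10785.

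Other neutrophil genes were found in microglia too. Summed over all libraries, per 1000000 units of the neutrophil level, microglia held 22.5 of S100a8 (20.8 to 24.2), 31.3 of S100a9 (29.4 to 33.3), 29.2 of Camp (25.7 to 33.1), 23.2 of Ngp (19.9 to 27.0), 30.3 of Lcn2 (24.6 to 36.8) and 32.6 of Ltf (25.0 to 41.8). Wfdc21 stood at 17.2 (10.4 to 26.9). The intervals of S100a8 and S100a9 did not overlap. Chil3, a chitinase-like protein of myeloid cells, stood at 60.2 (47.4 to 75.4) and Anxa1, which encodes annexin A1, at 60.7 (44.1 to 81.7), and both were also found in Mono, at 1679 and 276 CPM. Lyz2, which microglia express, stood at 28042. These sums set neutrophils of mainly 2 libraries against microglia of all 10, and within those libraries the fractions and their order were other. In the WT library at 6 months S100a8 stood at 96.4, Lcn2 at 164, Chil3 at 337 and Wfdc21 at 51.2 (18.8 to 112, 6 UMIs). In the Nlrp3KO APP/PS1 library at 3 months they stood at 49.0, 52.6, 73.5 (44.1 to 115) and 67.5 (30.8 to 129, 9 UMIs).

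Summed over libraries, the ratio of the 2 calprotectin genes was higher in microglia than in neutrophils. S100a9 over S100a8 was 1.14 (1.13 to 1.15) in neutrophils and 1.59 (1.44 to 1.75) in microglia. In the WT library at 6 months it was 1.01 in neutrophils, 0.936 (0.923 to 0.949) in Precursors and 1.51 (1.30 to 1.76) in microglia. In the Nlrp3KO APP/PS1 library at 3 months its interval was 1.48 to 1.52 in neutrophils, and it was 1.94 (1.62 to 2.33) in microglia. Among neutrophils it was 1.26 in cell-cycle, 1.08 in granule-high and 1.43 (1.37 to 1.48) in granule-low cells. The part of any of these in the microglial ratio was not tested.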

How the data were processed

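The authors sequenced CD45+ cells with 10x Genomics 3′ chemistry, and per the labels reads were processed with Cell Ranger (version not given in the sources used here) on mm10. The study's methods state that outlying cells (beyond 3 median absolute deviations, by UMIs, detected genes or mitochondrial UMIs) had been discarded. The deposited counts are UMIs per gene and cell without normalization. The deposited annotation gives cell types, the percent of mitochondrial UMIs, and a doublet score and ribosomal share as a fraction, as the authors computed them. Doublets were not removed here. The values of 1 listed gene are not reported here. Of the sample names, 2 (6897 cells) matched no sample description and were not used.

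Counts were summed per cell type and library with Python 3.11.15, numpy 2.4.6, scipy 1.17.1 and pandas 2.3.3. Log2 ratios used a prior count of 2 and a minimum of 100 UMIs over both types. Genes were named if they were in 22 lists, had the 10 highest or 10 lowest ratios to monocytes with the same direction in both libraries with 10 cells of each type, or had the 10 highest levels, and, for other cell types, S100a8, S100a9 and 8 more genes over 16-fold above microglia. The ratio step was tested on simulated data. Members and lists were chosen with earlier results of these data known. Each group has 1 library here, so p-values measure the spread between libraries or pairs of libraries.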

Additional observations from a re-analysis of the deposited data

How the results depend on the processing

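With 1 library per genotype and age, depth and cell number limit every neutrophil value, and the planned per-gene count fits (with their alternatives) and granule shares between genotypes were not run because 0 pairs held 10 neutrophils in both libraries. Beyond the pairs of libraries of the same age, replicate numbers allow no pairing, since each group has 1 library. The APP/PS1 difference in share kept its sign as a share of non-microglial cells, as log odds and without high doublet scores, and lay between 0.00867 (without the Nlrp3KO pair at 3 months) and 0.112 with each pair left out. The Nlrp3KO difference lay between -0.171 and 0.0340 with each pair left out, positive only without the 6-month pair. The correlation of the microglial level with the neutrophil share stayed between 0.927 and 0.989 with each library left out, and between 0.886 and 0.991 in the 6 other settings, 2 of which (neutrophils with Precursors, and centring within batches) were chosen after seeing the data. The 706 genes past 4-fold became 210 at a minimum of 500 UMIs, where 937 genes were tested, and 456 relative to the median log2 ratio, a setting chosen after seeing the data, as were Mono alone (515) and Mono NC alone (484). With each library left out they numbered 583 to 708. At a minimum of 50 UMIs they numbered 1026, without high doublet scores 806, at a prior count of 0.5 734 and by the mean of 2 libraries 568. No explanation of these differences was tested. The share of higher genes among these calls was 13.7%, and 41.0% relative to the median.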

Other observations

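Many UMIs of neutrophil genes were also found under another label. Of the 50 cells that the annotation names Precursors, 17 held 100 or more UMIs of S100a8 and S100a9, and 13 of these came from the WT library at 6 months, the library with the largest share of neutrophils. The limit of 100 was set after the values were seen. The 2 genes, which chose these cells, held a median of 29.2% of their UMIs (1.51% to 39.3%). Camp was found in 15 of them, at 37903 CPM, and Ngp in 14, at 23819 CPM. Cebpe and Mki67 were each found in all 17. Elane, found in 7 of the 17, stood at 1559 CPM and Prtn3, found in 12, at 1337 CPM, against 44.5 and 104 CPM in neutrophils. Retnlg (21 UMIs), Mmp8 (14 UMIs) and Cxcr2 (6 UMIs) were scarce. They were not counted as neutrophils in the report, other than in the setting that adds all Precursors to them, and they carried 96934 UMIs of the 2 calprotectin genes.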
